A study of Arabidopsis thaliana with 6 samples.

Results

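The chloroplast-encoded genes of Arabidopsis thaliana are the genes on the plastid chromosome, recognised here by locus tags that start with ArthCp. A gene was included where a probe set of the ATH1 array was annotated with that gene alone. This gave 69 genes, each with 1 probe set, of 13286 loci with a single-gene probe set. The other 15 of the 84 protein-coding plastid loci in the annotation were not matched to a single-gene probe set and were not analysed here. All 69 genes were bright enough to be tested.

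The study set sni1 against wild type, with 3 arrays per genotype. The sni1 plants carry a mutation induced by radiation, which the labels place in AT4G18460, in the Col-0 background. The wild-type plants were Col-0 with no further mutation. In both genotypes total RNA was taken from whole plants at growth stage 3.90, grown on commercial soil in a growth room at 22 °C after 3 days of seed stratification at 4 °C. Nothing in the labels says whether the 3 samples of a genotype were separate sowings, so p-values here reflect no more than sample-to-sample spread, possibly of technical origin.

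Plastids keep a small genome that encodes core subunits of the photosynthetic complexes together with parts of the machinery that expresses them. Most of these genes lie in clusters that are transcribed together by a bacterial-type RNA polymerase, whose core subunits are themselves plastid-encoded, or by a phage-type RNA polymerase encoded in the nucleus. The long primary transcripts are then cut, spliced and trimmed, and RNA-binding proteins protect their ends, so that genes of 1 cluster can differ in transcript level. Plastid transcripts mostly lack stable poly(A) tails, and the sources used here do not say how they were primed for labelling.

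All values are MAS5 signals, an intensity that combines the perfect-match and mismatch probes of a probe set, and arrays had trimmed means between 100.008 and 100.01. The signal of 1 probe set cannot be set against that of another, so levels are compared between arrays only. In whole-plant RNA, fewer green cells and less transcript per cell cannot be told apart. The single green-tissue marker with a probe set, RCA (Rubisco activase), had signals from 3763 to 6091 and was tested. The 4 root markers with a probe set had means between 2.91 and 21.9, under the filter of 24.5, and were not tested. The labelled tissue is the whole plant, and these 4 markers did not bear out the root part of that label. None of 8 flower markers had a named probe set. AT4G18460 had signals of 44.3, 32.5 and 28.2 in sni1 and 41.0, 40.04 and 37.2 in wild type (log2 fold change -0.18 ± 0.21 SE, limma adjusted p = 0.906). A mutation need not change the level of its transcript, so this signal does not check the labels.

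No chloroplast-encoded gene differed between sni1 and wild type past the threshold (limma adjusted p under 0.05), where 0.550% of the 13648 tested probe sets did (0.520% higher and 0.0293% lower in sni1). At an unadjusted limma p under 0.05 there was 1 of the 69, rps2, lower in sni1. Of the 13648 tested probe sets 744 were higher and 415 lower in sni1 at that p. Fold changes on the log2(signal + 2.8668) scale ran from -0.57 for rpl16 to 0.59 for rpoB, with a median of -0.13 over the 69 genes against -0.0051 over all tested probe sets. The mean was lower in sni1 for 47 genes and higher for 22. That median shrank to -0.04 after quantile normalization and to -0.03 after cyclic loess, with 37 genes lower in both. It was -0.062 without sni1 replicate 2, -0.086 without wild-type replicate 2 or 3, and -0.045 with the block and no replicate number 2. The genotypes did not overlap for 2 genes, rps2 and rps3, both lower in sni1, which is 2.90% of the genes against 14.4% of all tested probe sets (7.73% higher and 6.63% lower in sni1).

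The spread between arrays followed the replicate numbers 1 to 3 that both genotypes carry. When each array was compared with the mean of its genotype, same-numbered arrays of sni1 and wild type deviated together across the 69 genes, with correlations of 0.86, 0.825 and 0.88, while the differently numbered arrays gave values between -0.75 and 0.213. Genes of 1 array share its hybridisation, so these correlations are descriptions. With the replicate number as a block, 5 chloroplast-encoded genes passed, 4 lower and 1 higher in sni1. That is 7.25% of the 69, against 10% of all tested probe sets, of which 6.15% were higher and 3.88% lower in sni1. In the deposited scaling, all 3 same-numbered pairs were lower in sni1 for 28 genes (40.6%, against 23.4% of all tested probe sets) and higher for 4 (5.80%, against 23.2%). Of the 28, matK, psaB, ndhC, psaI and ndhI had positive fold changes after quantile normalization and after cyclic loess. The excess of lower pairs was not counted under those scalings.

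**Figure D1:**
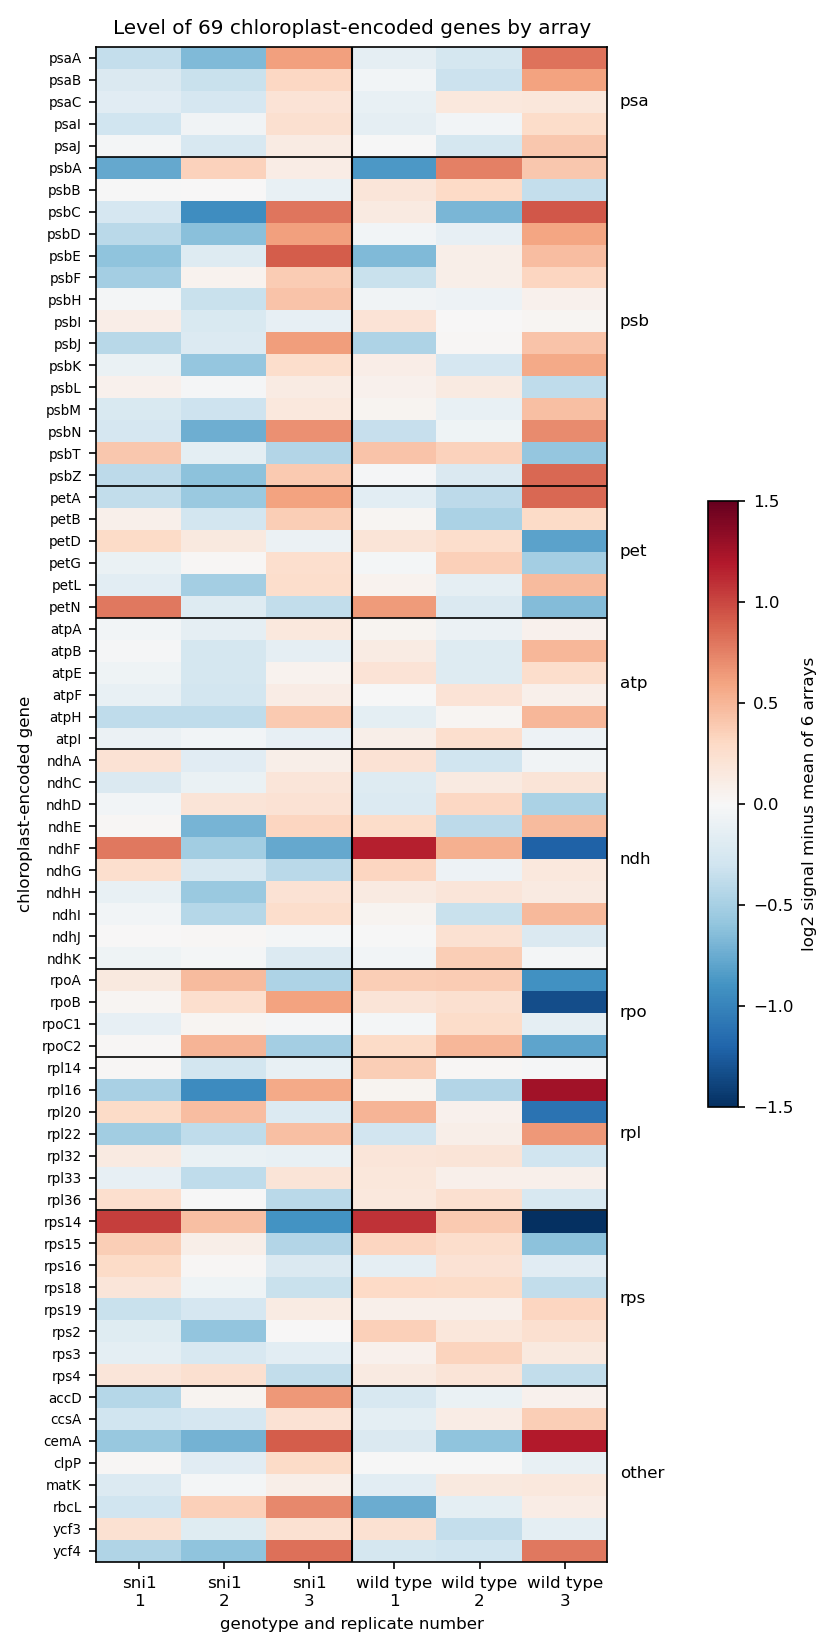
Level of each of the 69 chloroplast-encoded genes (rows, grouped by symbol class) on each array (columns, sni1 left and wild type right), as log2 signal minus the mean of the gene over 6 arrays; colours are clipped at the ends of the scale. The replicate 3 columns of both genotypes carry most of the strong colours, red for many psa and psb genes and blue for rps14, ndhF, rpoA and rpoC2.

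The gene that rose with the block was rbcL, which encodes the large subunit of Rubisco, the enzyme that fixes carbon dioxide. Its signals were 604, 957 and 1229 in sni1 replicates 1, 2 and 3, against 441, 670 and 803 in wild type. The genotypes overlapped, but sni1 was the higher array of each same-numbered pair. The means were 930.01 ± 313 in sni1 and 638 ± 183 in wild type (SD, n = 3 each), a ratio of 1.46; the log2 fold change was 0.52, with an SE of 0.32 (limma adjusted p = 0.00484 with the block and 0.757 without). That call held when the arrays were quantile normalized (adjusted p = 0.00152), centred on their medians (0.00738) or put through cyclic loess (0.00175), and with both arrays of any replicate number left out (at most 0.0289).

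The largest fall was that of rpl16, a protein of the large ribosomal subunit. Its signals were 536, 389 and 1115 in sni1 against 769, 550.0 and 1804 in wild type. Replicate 3 was the brightest array of each genotype and replicate 2 the dimmest, and each sni1 array lay below its wild-type partner. The log2 fold change was -0.57 ± 0.50 (limma adjusted p = 0.00332 with the block and 0.869 without), and the call with the block held under the 3 scalings (adjusted p at most 0.00499) and without any 1 replicate number (at most 0.0171).

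Signals of psbZ, a small subunit of photosystem II at its junction with the antenna, were 1184, 1017 and 2048 in sni1 and 1536, 1339 and 2846 in wild type. It too was lower in sni1 in each pair while the genotypes overlapped (log2 fold change -0.41 ± 0.36; limma adjusted p = 0.0130 with the block and 0.862 without). It did not pass with the block without replicate number 2 (adjusted p = 0.0698).

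The ribosomal protein genes rps2 and rps3 of the small subunit were the pair without overlap. Signals of rps2 were 666, 500.0 and 761 in sni1 against 969, 848 and 893 in wild type, with means of 642 ± 132 in sni1 and 903 ± 60.8 in wild type (SD, n = 3 each), and the log2 fold change was -0.51 ± 0.20 (limma adjusted p = 0.0161 with the block and 0.523 without). Signals of rps3 were 837, 785 and 826 in sni1 against 966, 1162 and 1028 in wild type, and the log2 fold change was -0.36 ± 0.16 (limma adjusted p = 0.0443 with the block and 0.614 without). In wild type neither gene was at its highest in replicate 3, unlike rbcL, rpl16 and psbZ. Without replicate number 2 neither passed with the block (adjusted p = 0.112 for rps2 and 0.248 for rps3). Without number 3, rps2 passed (0.00338) and rps3 did not (0.0668), and rps3 also failed when the block was joined to quantile normalization (0.0851), to median centring (0.0545) or to cyclic loess (0.0947).

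**Figure D2:**
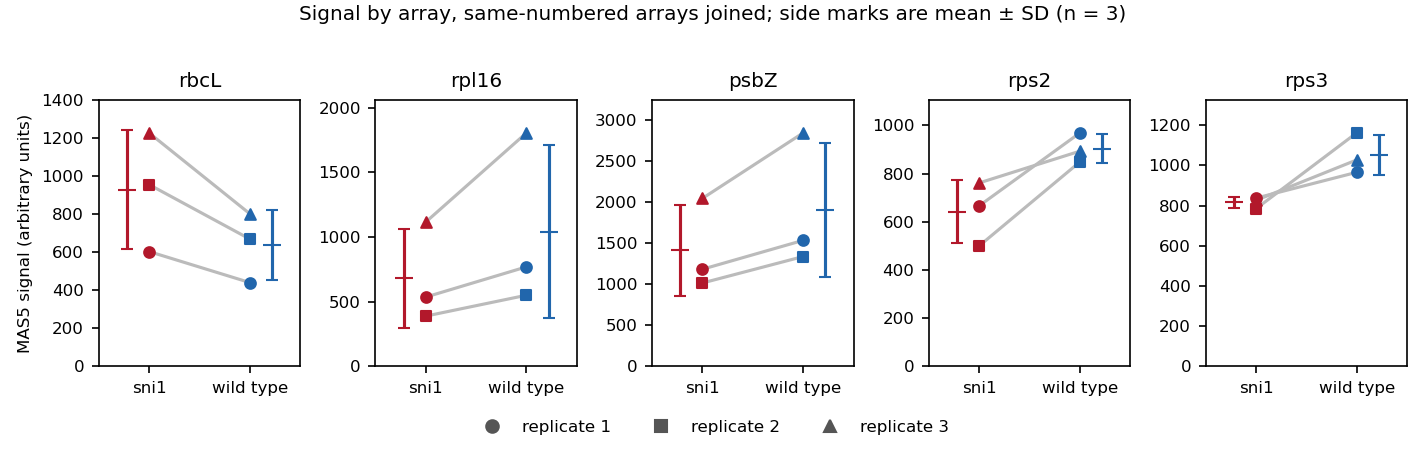
Signal of the 5 genes that passed with the replicate block, by array (sni1 left, wild type right; marker shapes give the replicate number, lines join same-numbered arrays, side marks are mean ± SD, n = 3). In each panel all 3 lines slope the same way, down towards wild type for rbcL and up for rpl16, psbZ, rps2 and rps3.

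In photosystem I, whose reaction centre is the pair psaA and psaB, all 5 measured genes had lower means in sni1, with log2 fold changes from -0.27 (psaA) to -0.07 (psaI) and none past the threshold in either fit. After quantile normalization and cyclic loess only 2 of the 5 were lower, and without wild-type replicate 3 only 1 was. Signals of psaA were 2044, 1654 and 4001 in sni1 and 2379, 2176 and 4588 in wild type (limma adjusted p = 0.0877 with the block and 0.929 without). Those of psaB were 3902, 3587 and 5612 in sni1 and 4420, 3632 and 6894 in wild type. In both genes the replicate 3 array stood far above the others of its genotype, and the difference between genotypes within a pair was small beside it. For psaC, which carries iron-sulfur clusters, the signals were 816, 772 and 1061 in sni1 and 847, 1028 and 1031 in wild type. The small subunit gene psaJ had 2478, 2151 and 2771 in sni1 and 2532, 2109 and 3368 in wild type, with pairs that went both ways.

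Of 15 photosystem II genes, 11 had lower means in sni1 and psbZ alone passed with the block. The class median was -0.16, and -0.06 after quantile normalization. With 1 array left out it lay between -0.31 (without sni1 replicate 3) and -0.017 (without wild-type replicate 2), and was also -0.24 without wild-type replicate 1, -0.064 without sni1 replicate 2 and -0.051 without wild-type replicate 3. The small subunits psbK and psbM were lower in each pair without passing. Signals of psbK were 3058, 2196 and 3940 in sni1 and 3530, 2764 and 4897 in wild type (log2 fold change -0.28; limma adjusted p = 0.0666 with the block). Signals of psbM were 4281, 4025 and 5586 in sni1 and 5134, 4616 and 6851 in wild type (-0.25, limma adjusted p = 0.0973 with the block). The small subunit psbI, also lower in each pair, had 1746, 1392 and 1498 in sni1 and 1867, 1636 and 1658 in wild type.

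The reaction-centre gene psbA, named here after its values were seen, differed in array pattern from psbZ, psbK and psbM. Its signals were 1207, 2624 and 2231 in sni1 and 1135, 3482 and 2722 in wild type. Replicate 1 was the dimmest array in both genotypes, by 1.12 (sni1) and 1.62 (wild type) on the log2 scale against replicate 2, and the genotypes overlapped (log2 fold change -0.20 ± 0.45, limma adjusted p = 0.276 with the block and 0.960 without).

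The cytochrome b6f complex, which passes electrons between the photosystems, had 4 of 6 genes with higher means in sni1 and 0 past the threshold in either fit. Without wild-type replicate 3 it had 2 higher and 4 lower. Cytochrome f (petA) had signals of 866, 763 and 1706 in sni1 and 1005, 854 and 2028 in wild type, lower in each pair (limma adjusted p = 0.166 with the block). The small subunit petL had 763, 596 and 1025 in sni1 and 884, 773 and 1183 in wild type. The small subunit petG had 328, 356 and 418 in sni1 and 345, 451 and 245 in wild type. For petD, subunit IV of the complex, the signals were 432, 389 and 332 in sni1 and 403, 425 and 200.5 in wild type. Its neighbour in the psbB cluster, petB, named after its values were seen, had 4374, 3417 and 5339 in sni1 and 4213, 2983 and 5052 in wild type, and passed as higher in sni1 only with the block combined with quantile normalization (adjusted p = 0.0149) or cyclic loess (0.0295), not with the block alone (0.481).

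Each of the 6 ATP synthase genes had a lower mean in sni1, from -0.28 (atpB) to -0.014 (atpA), with 0 past the threshold in either fit. After quantile normalization 5 were lower and after cyclic loess 4. The beta subunit gene atpB had signals of 5880, 4967 and 5402 in sni1 and 6493, 5188 and 8388 in wild type. Its wild-type replicate 3 array stood above its other 5 arrays. Its neighbour atpE, the epsilon subunit, had 4464, 3910 and 4843 in sni1 and 5411, 4100 and 5611 in wild type. The membrane subunits atpI (237, 244 and 230.4 in sni1, 267, 301 and 238 in wild type, lower in each pair) and atpF (1053, 935 and 1226 in sni1, 1129, 1308 and 1196 in wild type) had overlapping genotypes too.

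The NADH dehydrogenase-like complex, which takes part in cyclic electron flow, had 8 of 10 genes with lower means in sni1 (5 of 10 after quantile normalization or cyclic loess) and 0 past the threshold in either fit. Signals of ndhH were 152, 111 and 191 in sni1 and 181, 187 and 180 in wild type. Signals of ndhG were 942, 668 and 597 in sni1 and 990.4, 752 and 888 in wild type. For ndhK the values were 490, 505 and 446 in sni1 and 499.7, 666 and 504 in wild type, and for ndhD they were 1535, 1811 and 1829 in sni1 and 1372, 1952 and 1131 in wild type. The ndhD gene was 1 of the 2 with a higher mean in sni1, and its genotypes overlapped like those of the other 9.

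The 4 genes for the core of the plastid RNA polymerase did not move together. The beta subunit gene rpoB had the highest fold change of the 69 genes (0.59 ± 0.41), with signals of 244, 286 and 364 in sni1 and 272, 283 and 93.5 in wild type. That difference rests on replicate 3, where sni1 was high and wild type low. Without the arrays of replicate number 3 it was -0.07, and without those of number 1 it passed with the block (0.97, limma adjusted p = 0.0190). The alpha subunit gene rpoA had 579, 729 and 378 in sni1 and 678, 685 and 278 in wild type. The genes rpoC1 (763, 852 and 820.3 in sni1, 815, 1005 and 760.3 in wild type) and rpoC2 (147, 208 and 102 in sni1, 178, 207 and 82.9 in wild type) had fold changes of -0.07 for rpoC1 and 0.0067 for rpoC2; rpoC2 turned negative under each of the 3 scalings.

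Among the ribosomal protein genes, 6 of 7 rpl genes and 4 of 8 rps genes had lower means in sni1 (8 of 8 rps genes without sni1 replicate 1), and rpl16, rps2 and rps3 were the calls with the block. The rpl22 signals were 443, 489 and 870.1 in sni1 and 522, 674 and 997 in wild type (limma adjusted p = 0.0807 with the block), and those of rps19 were 670.2, 710.5 and 928 in sni1 and 893, 893 and 1061 in wild type (0.0594 with the block). Both were lower in each pair. These genes lie beside rps3 and rpl16 in 1 cluster, in the order rps19, rpl22, rps3, rpl16, rpl14, rpl36 and rpoA among the measured genes. The fold changes along that order were -0.31, -0.30, -0.36, -0.57, -0.25, -0.10 and 0.10. Further members were rpl14 (199, 163 and 182 in sni1, 256, 199 and 195 in wild type), rpl33 (1456, 1212 and 1804 in sni1, 1778, 1670 and 1670 in wild type) and rps18 (452, 380 and 316 in sni1, 493, 487 and 308 in wild type), none of which passed in either fit.

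The remaining genes serve other tasks. The accD gene, for a subunit of the acetyl-CoA carboxylase of fatty acid synthesis, had 597, 827 and 1262 in sni1 and 678, 750.5 and 837 in wild type. The ccsA gene, for cytochrome c maturation, had 1841, 1900 and 2646 in sni1 and 2053, 2462 and 2928 in wild type and was lower in each pair. The photosystem I assembly gene ycf3 had 603, 452 and 601 in sni1 and 602, 400 and 463 in wild type. None of the 3 passed in either fit, nor did matK, the intron maturase gene (-0.10), or clpP, for a protease subunit (0.09).

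**Figure D3:**
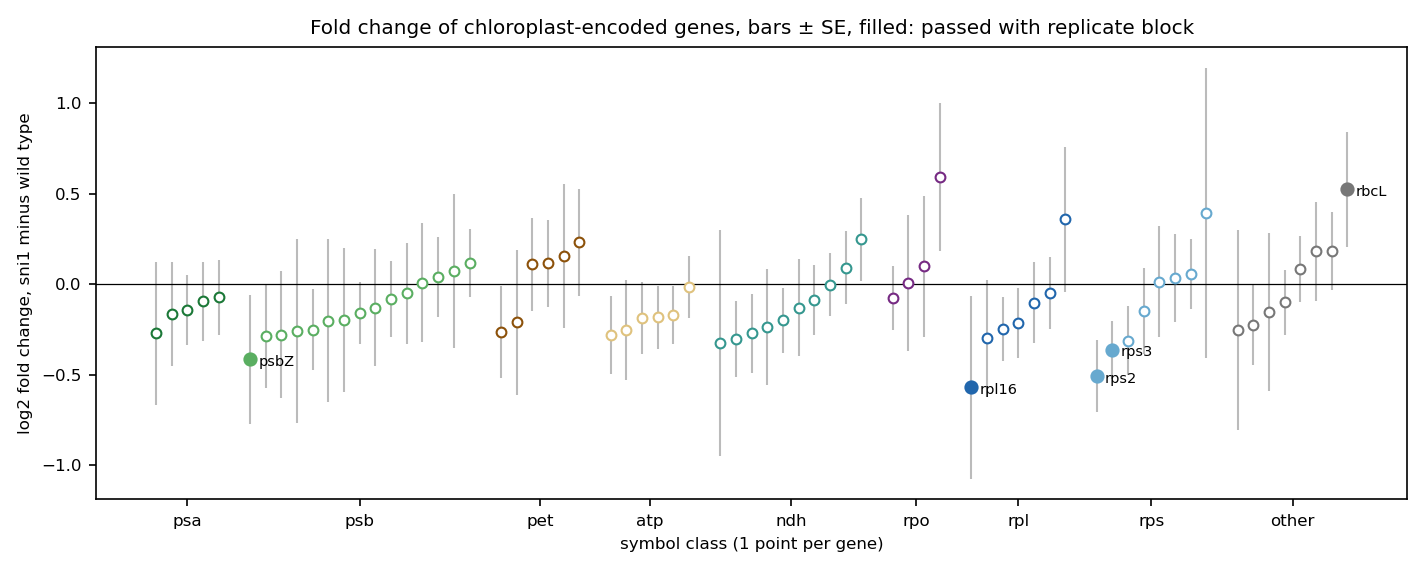
Log2 fold change (sni1 minus wild type) of each of the 69 genes, grouped by symbol class, with bars for ± 1 SE of the fit without the block; filled points passed with the replicate block. All points lie between -0.57 and 0.59, and 47 of 69 are below 0.

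More chloroplast-encoded genes differed between replicate numbers than between genotypes. In the fit with the block, the moderated F test over the replicate numbers, added after the data were seen, passed for 44 of the 69 genes (63.8%), against 31.2% of all tested probe sets. After quantile normalization these shares were 62.3% and 30.6%. Both replicate 3 arrays lay above the other 4 arrays in 30 genes (43.5%, against 16.2% of all tested probe sets) and below them in 16 (23.2%, against 20.0%). After quantile normalization 19 genes were above and 21 below (27.5% and 30.4%, against 17.5% and 16.9%). After cyclic loess 20 were above and 19 below (29% and 27.5%, against 17.9% and 17.6%). The share above thus stayed over that of all tested probe sets, while its size and the balance of genes above and below depended on the scaling.

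By class median, replicate 3 was higher than replicates 1 and 2 for photosystem genes and for genes outside the 8 named classes. It was lower for RNA polymerase and small ribosomal subunit genes. Single genes went the other way on average over the genotypes, namely psbB, psbI, psbL, psbT, rps2 and rps19. In sni1 alone rpoB (0.46) and rpoC1 (0.025) were not lower. Averaged over the genotypes, the median difference of replicate 3 from the mean of replicates 1 and 2 was 0.53 for psb, 0.40 for psa, -0.76 for rpo and -0.41 for rps on the log2 scale. After quantile normalization these values were 0.14, 0.20, -0.74 and -0.43, and after cyclic loess 0.28, 0.21, -0.76 and -0.44. The 8 genes outside the named classes, such as cemA and rbcL, had a median of 0.49. Their median was 0.291 after quantile normalization and 0.315 after cyclic loess, above psa and psb under both scalings. The medians of pet (0.15) and atp (0.20) turned to -0.10 and -0.16 after quantile normalization and to -0.017 and -0.058 after cyclic loess. The medians of ndh and rpl were -0.07 and -0.10 and turned positive with median centring (0.08 and 0.06). Median centring also moved the median of all tested probe sets, from -0.042 to 0.113, so both classes stayed below it. In the deposited values all 5 psa genes had both replicate 3 arrays above the other 4, as did 10 of 15 psb genes, 2 of 7 rpl genes, 1 of 8 rps genes and 0 of 4 rpo genes. So did 3 of 6 pet, 2 of 6 atp and 3 of 10 ndh genes, and 4 of the 8 genes outside the named classes. Both replicate 3 arrays lay below the other 4 in 5 of 8 rps genes, 2 of 4 rpo genes and 3 of 7 rpl genes. They also did in 2 of 6 pet, 2 of 10 ndh and 2 of 15 psb genes.

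Genes near the ends of this range, named after their values were seen, kept their direction under the scalings. The gene cemA, for a protein of the inner plastid envelope, had replicate 3 signals of 2440 in sni1 and 2977 in wild type, while its other arrays lay between 795 and 1124. The gene psbC, for an inner antenna protein of photosystem II, had 2722 and 2985 in replicate 3 and between 816 and 1719 elsewhere. At the other end rps14 had 168 in sni1 and 73.1 in wild type in replicate 3, and between 414 and 673 elsewhere. The membrane subunit gene ndhF had 61.7 and 44.6 in replicate 3, and between 73.5 and 242 elsewhere. The replicate 3 difference was 1.57 for cemA, 1.30 for psbC, -1.48 for ndhF and -2.22 for rps14, and 1.36, 1.09, -1.41 and -2.21 after quantile normalization.

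The replicate 3 differences of the 69 genes in sni1 and in wild type, which share no array, were correlated across genes (Pearson's r = 0.88, Spearman's rho = 0.87). This r restates the correlation given above for the 2 arrays numbered 3 and adds nothing to it. With 3 arrays per genotype, the replicate 3 difference is a fixed multiple of that array's deviation from its genotype mean. The replicate 3 differences had the same sign in both genotypes for 53 genes. The exception with the largest gap was rpoB, at 0.46 in sni1 and -1.54 in wild type. The difference between replicates 2 and 1 was also shared (r = 0.80). Across the 69 genes, the replicate 3 difference went with the mean signal of the probe set (Spearman's rho = 0.53) and not with the annotated gene length (rho = -0.04). Over the 13648 tested probe sets rho was 0.22, there against the mean log2 level, so the 2 values are not on 1 measure. Both means include the replicate 3 arrays, which by itself raises the mean of a gene that is high in replicate 3. Genes on 1 array are not independent replicates.

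**Figure D4:**
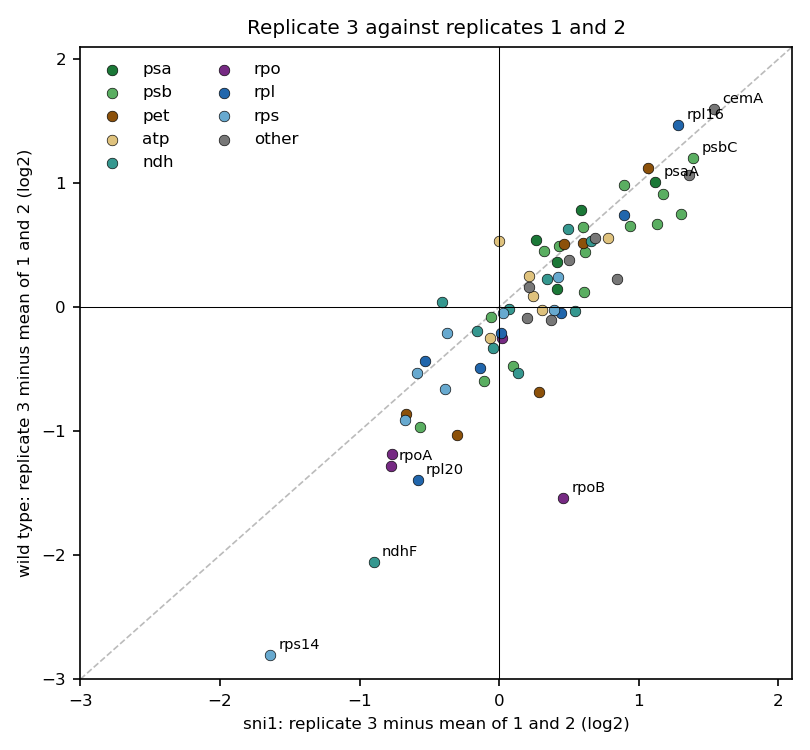
Replicate 3 minus the mean of replicates 1 and 2 (log2) in sni1 (horizontal) and wild type (vertical) for each of the 69 genes, coloured by symbol class; the dashed line marks equality. Points follow the diagonal from rps14 at the lower left to cemA at the upper right, and rpoB lies apart.

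Array-wide measures moved with replicate number 3 as well. The 10th percentile of signals was 1.90 in sni1 and 1.82 in wild type in replicate 3, and between 3.37 and 4.35 on the other arrays. The GAPDH control gave 3' over 5' ratios, a measure of RNA integrity, that were 1.17 and 1.12 in replicate 3 and between 1.50 and 1.75 elsewhere. The 5S ribosomal RNA control had 123 and 52.4 in replicate 3, and between 235 and 317 elsewhere. The actin 3' to 5' ratio did not separate replicate 3, with 3.29 and 4.22 there and 2.58 to 7.61 elsewhere. The part of these measures in the replicate differences was not tested.

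Neighbours that are transcribed together often differed in their replicate 3 values. In the psaA cluster the differences were 1.12 (sni1) and 1.01 (wild type) for psaA and 0.58 and 0.78 for psaB, but -1.64 and -2.80 for rps14, the third gene of the cluster. In the psbB cluster they were negative for psbB, psbT and petD (-0.35, -0.77 and -0.67 averaged over genotypes) and positive for psbH and petB (0.37 and 0.49). In the ribosomal protein cluster rpl22 (0.82) and rpl16 (1.38) stood above rps3 (-0.0082), which lies between them, and rpoA at its end was at -1.03. Averaged over genotypes, all measured genes of a cluster had the same sign in 4 of the 14 clusters examined. In 2 of these every value also had the same sign in both genotypes. The genes psbD, psbC and psbZ had 0.90, 1.30 and 0.94, and psaI, ycf4, cemA and petA had 0.39, 1.21, 1.57 and 1.10. In the psbE cluster psbL was at -0.19 beside psbE at 1.03, psbF at 0.53 and psbJ at 0.80. The psbN gene, which lies on the strand opposite to the rest of the psbB cluster, had 1.04.

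**Figure D5:**
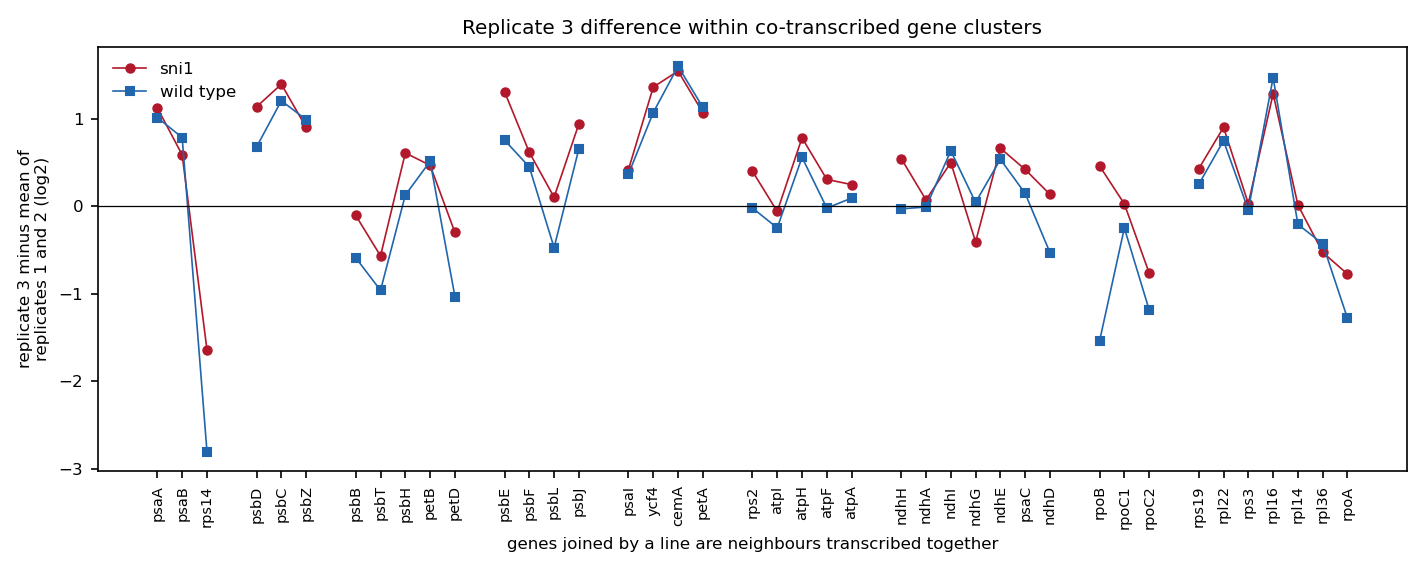
Replicate 3 minus the mean of replicates 1 and 2 (log2, vertical axis) for genes in the order of 9 co-transcribed clusters (horizontal axis), in sni1 (red circles) and wild type (blue squares). Within the psaA and psbB clusters the sign changes between neighbours, in both genotypes alike.

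The other organelle genome had a median fold change of the opposite sign. The 16 mitochondrion-encoded genes with a named probe set had low means, from 2.98 to 192, and 12 were tested. The median log2 fold change of these 12 was 0.32, with 11 of 12 higher in sni1. For the chloroplast-encoded genes it was -0.13, with 22 of 69 higher, so the medians differed by -0.45. None of the 12 passed without the block, and 2 rose with it (where 6.15% of all tested probe sets were higher), the subunit gene nad4 of respiratory complex I and ccmFC, for cytochrome c maturation. Signals of nad4 were 201, 198 and 140 in sni1 and 151, 141 and 109 in wild type (limma adjusted p = 0.0381 with the block), and those of ccmFC were 168, 106 and 136 in sni1 and 88.1, 83.8 and 99.4 in wild type (0.0278). The probes of ccmFC may hybridise with several transcripts, as the suffix of the probe set name marks. The tested genes mttB, nad6 and nad5 carry the same suffix. Per array, the median log2 signal of chloroplast-encoded minus mitochondrion-encoded genes was 3.63, 3.81 and 4.35 in sni1 and 4.02, 4.16 and 4.59 in wild type. In each same-numbered pair the sni1 array had the lower value, while the genotypes overlapped.

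Nuclear genes for partners of the same complexes were few on the annotated array. Of 53 listed nuclear photosynthesis genes 8 were tested and all had lower means in sni1 in the deposited scaling (median -0.28), as had the 3 tested of 14 nuclear subunits of the NADH dehydrogenase-like complex (median -0.19). None passed without the block. With it the antenna gene LHCB4.2 (-0.47, limma adjusted p = 0.0125), the photosystem II gene PSBY (-0.37, 0.0202) and NdhS (-0.33, 0.0464) fell, 3 of the 11 tested, where 3.88% of all tested probe sets were lower. NdhS had signals of 632, 709 and 712 in sni1 and 810.4, 942 and 832 in wild type, without overlap. NdhL (-0.19) and NdhN (-0.11) did not pass in either fit. The antenna gene LHCB4.1 stood at -0.30 (limma adjusted p = 0.0957 with the block), and RCA at -0.11, but RCA turned to 0.059 after quantile normalization and to 0.095 after cyclic loess. In the deposited scaling all 8 tested nuclear photosynthesis genes had replicate 3 above the mean of replicates 1 and 2 in both genotypes (median 0.38). The replicate 3 rise was thus not particular to plastid-encoded photosystem genes. The median of the 3 nuclear NADH dehydrogenase-like subunits was -0.25, with 2 lower in both genotypes. Of 22 listed nuclear genes for plastid transcription 1 had a named probe set, AT5G15700, at 4.41 to 23.6 and under the filter, and of 15 for plastid RNA processing 0 had one.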

How the data were processed

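The authors deposited signal intensity values on a linear scale, 1 per probe set and array. MAS5 is named in the submitters' processing notes; the sources used here give no version, settings or genome build. Array trimmed means (2% off each end) nearly coincide, so the deposited values had been scaled. The number of arrays limits the precision.

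Of 22746 probe sets (64 controls left out), those with a mean under 24.5, the 40th percentile, were dropped, leaving 13648. Gene names came from the platform annotation, which pairs 13513 probe sets with 1 gene, 503 with several and 8730 with none, through gene identifiers of TAIR10.1. For the mitochondrion older identifiers were matched by symbol (23 probe sets, 16 genes). The plan had named locus tags for it that the annotation does not use. Values were taken as log2(signal + 2.8668), where 2.8668 is the 10th percentile over the whole table; this understates fold changes of low signals. Genotypes were compared with limma 3.58.1 (lmFit, eBayes with trend) under R 4.3.3. Tests were two-sided, p-values were adjusted by Benjamini-Hochberg over all tested probe sets, and the threshold was 0.05. Figures used Python 3.11.15 and matplotlib 3.10.9. The procedure was tested on simulated data.

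Both genotypes carry replicate numbers in their titles. Across all tested probe sets, deviations of same-numbered arrays correlated at 0.663, 0.580 and 0.713 (other combinations between -0.533 and -0.0542), so the numbers were taken as pairing the samples. This rests on the data and not on the labels, and the blocked value is given where it changes a call.

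The genes, lists and tests were chosen with earlier results of these data known, and the clusters and the replicate-number comparison after the values were seen. Array values are given for up to 4 genes per symbol class, calls first and then by smallest p, and for rbcL. Values of petB, psbA, psbC, cemA, rps14, ndhF, nad4 and ccmFC were added after they were seen. From the nuclear lists up to 3 genes each are named. Alternatives covered the added constant, filter, scaling, variance trend, array weights, replicate block, probe set and left-out arrays. The permutation test planned for the organelle difference is not given, since it would test a score over chosen genes.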

Additional observations from a re-analysis of the deposited data

How the results depend on the processing

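Without the replicate block no chloroplast-encoded gene passed in limma under any setting run (other constants, filters and scalings, no variance trend, array weights, the lowest probe set, any 1 array left out). In the main fit 1 of the 69 had an unadjusted limma p under 0.05, against 744 higher and 415 lower of the 13648 tested probe sets. With the block 5 passed (1 higher and 4 lower in sni1). With the block and quantile normalization or cyclic loess 5 passed (2 higher and 3 lower; 7.25%, against 10.6% and 10.2% of all tested probe sets), and with the block and median centring 4 (1 higher and 3 lower; 5.80% against 9.80%). With the block and both arrays of a replicate number left out, 8 passed without number 1 (4 higher and 4 lower; 11.6% against 8.37%), 2 without number 2 (1 and 1; 2.90% against 5.76%) and 7 without number 3 (1 and 6; 10.1% against 7.69%), in fits of 4 arrays. The median log2 fold change of the 69 genes stayed negative, from -0.18 to -0.062 with 1 array left out, and 42 to 50 genes were then lower. The mitochondrial median was 0.28 with the constant at the 25th percentile, ran from 0.22 to 0.41 with 1 array left out, and was 0.25 without number 1 in the blocked fit. The chloroplast minus mitochondrion difference was, in either fit, -0.33 after quantile normalization and -0.34 after cyclic loess, ran from -0.59 to -0.32 with 1 array left out, and was -0.36 without number 2 in the blocked fit.

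Of the 69 genes 43 changed direction under at least 1 setting run, none of them among the 5 that passed with the block. Values follow for the 12 that the naming rule chose and for RCA. After quantile normalization, with the block and without, the log2 fold change was -0.053 for rpoC2, 0.00074 for rpoC1, 0.012 for psaB, 0.045 for psaJ and 0.059 for RCA. After cyclic loess, likewise, it was -0.029 for rpoC2, 0.039 for psaB, 0.061 for psaJ, 0.021 for atpE and 0.095 for RCA. After median centring rpoC2 was at -0.0063, and with array weights rpoC2 was at -0.054 and petG at -0.063. Without number 3 in the blocked fit, values were -0.13 for rpoC2, -0.073 for rpoB, -0.022 for accD, -0.21 for petG, -0.012 for petD and -0.069 for rpoA, and without number 2 rpoC1 was at 0.0070. With 1 array left out the ranges were -0.39 to 0.26 for rpoC2, -0.16 to 0.043 for rpoC1, -0.37 to 0.096 for psaB, -0.64 to 0.067 for psaA, -0.098 to 0.44 for accD, -0.56 to 0.17 for petA, -0.11 to 0.33 for petG, -0.25 to 0.086 for psaJ, -0.11 to 0.42 for petD, -0.33 to 0.36 for rpoA and -0.25 to 0.041 for RCA. The cause was not tested.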
